A study of Homo sapiens with 12 samples.

Results

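The antisense RNA genes examined here are named for the protein-coding gene or locus on whose opposite strand they lie, with a symbol that ends in -AS and a number. The platform annotation named 480 such genes on the array, and 145 of them had a mean log2 value of 5 or more on the 6 control arrays. These 145 were kept, and the remaining 335 fell below that minimum. For the 24 of the 480 genes with several rows, and 12 of the 145, the brightest row, by its mean on the 12 arrays, stood for the gene. The cells were HEK293, derived from human embryonic kidney by transformation with adenovirus DNA. In 6 samples they received synthetic miR-1825, which imitates the microRNA (mimic-1825). The other 6 samples received AllStars Negative Control siRNA (control), a commercial negative control. Each sample was hybridised to 1 array. Both RNAs were given at 5 nM with the same reagent, total RNA was taken after 24 h, and no untransfected cells were among the samples. The labels do not say whether replicates came from different cultures, and the p-values reflect only how these samples varied, possibly for technical reasons. In such bulk samples, fewer cells that carry an RNA and less of it per cell cannot be told apart.

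Antisense transcripts arise where both strands of a locus are transcribed, often from a promoter that also drives the sense gene in the opposite direction. Many are short-lived and stay in the nucleus, where the RNA exosome and its adaptors remove them, whereas a few are stable long non-coding RNAs that act on chromatin, on translation or as decoys of microRNAs. MicroRNAs themselves act through a short seed at their 5′ end, which pairs with target RNAs in Argonaute proteins. The series title places miR-1825 in the context of amyotrophic lateral sclerosis and gives the search for target mRNAs as the aim. Sequences of the antisense transcripts were not used here, so their pairing with the seed was not analysed.

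The mature microRNA is shown first because it is the agent that distinguishes the groups. It has 18 bases, and the capitals mark its seed, bases 2 to 8 (RefSeq, GRCh38.p14, chr20:32237830-32237847, plus strand).
hsa-miR-1825: uCCAGUGCccuccucucc

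RefSeq promoter windows, which run from 250 bases before to 50 bases after a gene's start, are shown for the antisense gene with the largest positive difference, THAP9-AS1, and for the pair WAC-AS1 and WAC, whose windows overlap. They lie at chr4:82900867-82901166 on the minus strand (THAP9-AS1), chr10:28532305-28532604 on the minus strand (WAC-AS1) and chr10:28532529-28532828 on the plus strand (WAC), all in GRCh38.p14. In THAP9-AS1 the capitals mark each CCAAT and GGGCGG, on either strand. In WAC-AS1 and WAC they mark the 76 bases that both windows share, read on opposite strands.
THAP9-AS1: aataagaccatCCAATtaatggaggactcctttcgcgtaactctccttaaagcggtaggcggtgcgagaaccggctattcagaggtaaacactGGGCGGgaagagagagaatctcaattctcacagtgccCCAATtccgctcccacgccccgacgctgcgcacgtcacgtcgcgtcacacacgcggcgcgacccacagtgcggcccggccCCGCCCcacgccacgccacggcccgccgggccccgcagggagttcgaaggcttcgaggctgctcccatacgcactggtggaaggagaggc
WAC-AS1: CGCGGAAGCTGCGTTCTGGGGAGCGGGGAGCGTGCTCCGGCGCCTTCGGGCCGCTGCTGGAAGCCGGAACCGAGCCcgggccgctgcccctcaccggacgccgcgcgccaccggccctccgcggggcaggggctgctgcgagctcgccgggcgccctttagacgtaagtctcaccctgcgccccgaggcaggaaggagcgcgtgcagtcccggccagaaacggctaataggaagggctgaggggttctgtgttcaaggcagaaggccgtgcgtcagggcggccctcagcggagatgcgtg
WAC: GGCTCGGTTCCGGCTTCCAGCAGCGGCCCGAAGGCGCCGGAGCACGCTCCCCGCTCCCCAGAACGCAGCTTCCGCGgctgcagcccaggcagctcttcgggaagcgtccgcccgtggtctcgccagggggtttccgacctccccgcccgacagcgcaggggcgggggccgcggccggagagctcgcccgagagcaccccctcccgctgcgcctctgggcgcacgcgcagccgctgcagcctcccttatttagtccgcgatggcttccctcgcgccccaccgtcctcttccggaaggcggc

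Of the 145 genes, 119 had a promoter window in the RefSeq table. These had 144 windows, because some genes have several starts. The windows were rich in G and C, with a median of 65% and 23 CpG dinucleotides, against 50% and 5 in the 12917 windows of all annotated lncRNA genes and 58.7% and 14 in all 35116 windows. Windows of the sense genes were similar, with a median of 64.7% and 24 CpG dinucleotides. The box GGGCGG, searched on both strands like every motif here, stood in 77 of the 144 antisense windows (53.5%), against 25.5% of all lncRNA windows and 45.0% of all windows. GCATGCGC stood in 7.64% of antisense windows, against 3.05% of all windows. TATAAA stood in 4.86%, against 11.5% of all windows. CCAAT stood in 49 of the 144 (34.6% of all windows) and CCGGAAG in 9.03% (10.3% of all windows). In the 219 windows of sense genes, GGGCGG stood in 59.8%, GCATGCGC in 4.57%, TATAAA in 6.39%, CCAAT in 36.5% and CCGGAAG in 7.76%. The antisense genes were chosen by level on the array, whereas the windows of all genes and of all lncRNA genes were not. No motif searched contains another. A match describes the letters in a window and not a bound site.

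Positions of sense and antisense starts could be set side by side for 102 of the pairs, from RefSeq windows. In all 102 pairs the genes lay on opposite strands, and in 81 the annotated gene bodies overlapped. The median distance between the nearest starts was 1016 bases and the largest was 535926 bases. In 28 pairs the antisense gene started up to 1000 bases upstream of the sense start, so that the nearest annotated starts point away from each other, although in 12 of these pairs the gene bodies still overlapped. The start lay up to 1000 bases downstream in 22 pairs, so that the first parts of both transcripts overlap, and the other 52 pairs had starts over 1000 bases apart. WAC-AS1 started 425 bases upstream of WAC, and THAP9-AS1 started 181 bases downstream of the THAP9 start. Promoter windows shared bases in 26 pairs.

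The array assay bears on the measurement in several ways. Per the labels' protocols, the target was made with the Whole Transcript Sense Target labelling assay, which keeps strand, so an antisense gene and its sense gene were read by different rows. The deposited values were read as log2, from their range of 1.62 to 14.4, and array medians lay between 4.44 and 4.51. A value of 5 thus lay above the middle of the array but was not shown to mark expression. Of 84 keratin-associated protein genes, a hair shaft family used as a check chosen after the data were seen, 16 (19.0%) also reached 5 in the controls, against 30.2% of the antisense genes and 72.1% of the protein-coding genes. Of the 6 HEK293 markers listed, 4 had a named row, and their means in the mimic-1825 and control groups were 8.01 and 8.08 for VIM, 5.61 and 5.59 for PAX2, 6.24 and 6.32 for KRT8, and 9.63 and 9.74 for KRT18. Of the 13 markers of other cell types, 8 had a named row. In the controls these ranged from 2.65 for the fibroblast gene DCN to 5.68 for the fibroblast gene LUM, with the hepatocyte gene TTR at 5.49. Probe affinity sets part of every value, so the order of levels of different rows is given only as a description.

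Control means of the 145 antisense genes ran from 5.01 to 9.08 with a median of 5.64. There were 97 genes between 5 and 6, 33 between 6 and 7 and 15 at 7 or more. These levels chose the genes and are given as a description. C10orf95-AS1 had the highest control mean, with 9.03 ± 0.07 in mimic-1825 cells and 9.08 ± 0.05 in controls (SD, n = 6 each). A second row of C10orf95-AS1 averaged only 5.16 in mimic-1825 cells and 5.19 in controls. Just inside the minimum stood PIK3CD-AS1, with 4.95 ± 0.08 in mimic-1825 cells and 5.01 ± 0.10 in controls, and PRC1-AS1, with 5.00 ± 0.21 and 5.01 ± 0.07. Just outside stood HHIP-AS1, with 4.88 ± 0.12 in mimic-1825 cells and 4.995 ± 0.14 in controls, and EHBP1-AS1, with 4.95 ± 0.12 and 4.997 ± 0.19. The SD between replicates had a median of 0.13 over the 145 genes, against 0.14 over all 53617 transcript clusters (the array's rows) and 0.09 over protein-coding genes at 5 or more. Pooled over both groups it was smallest for TMEM147-AS1, whose SD was 0.05 in mimic-1825 cells and 0.06 in controls.

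No antisense gene passed the test of mimic-1825 against control. In limma's fit over all 53617 transcript clusters, 0 of the 145 had a Benjamini-Hochberg adjusted p under 0.05, and over the whole array 0.0112% of clusters did, 0.00933% higher and 0.00187% lower. At an unadjusted p under 0.05 there were 9 of 145 (6.21%), against a background of 10.8% of all clusters. Of these 9, 3 were higher and 6 were lower after the mimic, beside background shares of 5.36% higher and 5.4% lower. In none of the 145 did the 6 mimic-1825 arrays lie wholly apart from the 6 control arrays, which 1.17% of all clusters did (0.759% higher and 0.414% lower). Among the 22114 clusters that, like these genes, had a control mean of 5 or more, 2.22% lay wholly apart, 1989 were higher and 1097 lower at an unadjusted p under 0.05, and 53.6% had a positive log2 fold change. All 6 mimic-1825 arrays lay above the control mean in 6 genes and below it in 9. These counts, and the same measure given for single genes below, are a description without the share of all clusters beside them.

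Differences were small in size. Log2 fold changes (mimic-1825 minus control) had a median of -0.02 over the 145 genes, with 61 positive and 84 negative, and quartiles at -0.08 and 0.04. Over all clusters the median was -0.01 and 46.6% were positive, against 42.1% of the antisense genes. After quantile normalization 58 of the 145 were positive, and with arrays centred on their medians 71 were. The median standard error was 0.08, and in 139 of the 145 genes the 95% interval of the difference lay within 0.5 log2 units of 0 on both sides. Among the 145, 1 gene lies on the Y chromosome and is counted but not described. The mean over all 145 genes was 5.89 ± 0.01 on mimic-1825 arrays and 5.91 ± 0.02 on control arrays, with ranges of 5.88 to 5.90 and 5.89 to 5.94.

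**Figure D1:**
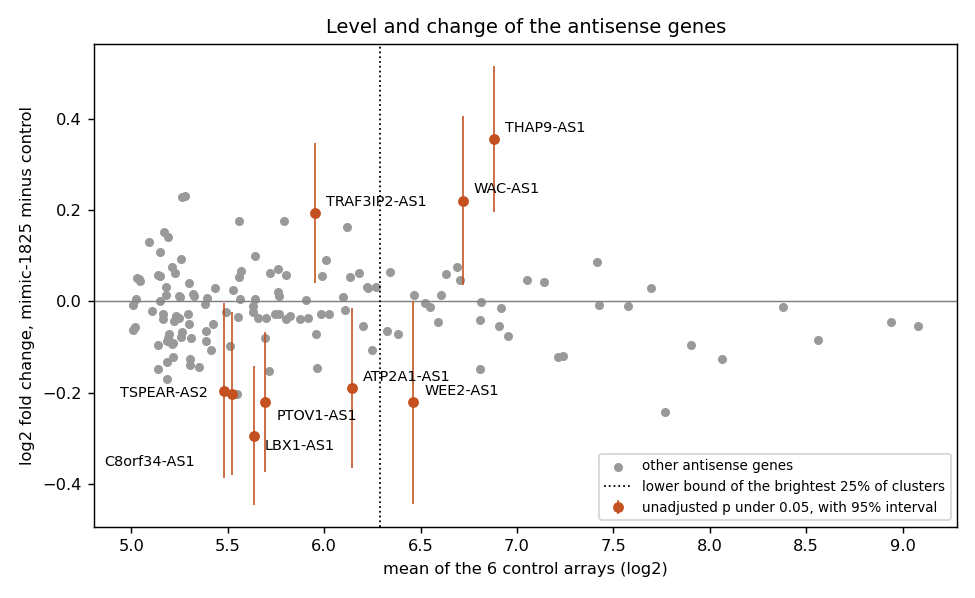
Each point is 1 of 144 antisense genes, with the mean of the 6 control arrays (log2) on the x axis and the log2 fold change, mimic-1825 minus control, on the y axis. Orange points are the 9 genes with an unadjusted p under 0.05, with bars for the 95% interval, and the dotted line at 6.29 is the lower bound of the brightest 25% of clusters. THAP9-AS1 at 0.36 stands highest, and most genes lie close to 0.

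Of the 9 antisense genes with an unadjusted p under 0.05, THAP9-AS1, WAC-AS1 and TRAF3IP2-AS1 were higher after the mimic. THAP9-AS1, antisense to a gene that encodes a protein related to P element transposases, had array values of 7.02, 7.25 and 7.43 in mimic-1825 cells (lowest, median, highest), against 6.74, 6.87 and 7.09 in controls. Its groups touched only where mimic-1825 replicate 5, the lowest of its group, fell below the highest control array, replicate 4. The means were 7.24 ± 0.14 in mimic-1825 cells and 6.88 ± 0.12 in controls (SD, n = 6 each), a log2 fold change of 0.36 (SE 0.07, 1.28-fold, limma adjusted p = 0.195 over all clusters). In the fit of the brightest 25% of clusters, where 35 of the 145 genes were tested, THAP9-AS1 was the 1 antisense gene called (limma adjusted p = 0.0327), beside 1.81% of all clusters there. That call held without control replicate 4 or 5 or mimic-1825 replicate 4 or 5 and was lost without any one of the other 8 arrays, with adjusted p between 0.0526 and 0.0725. The sense gene THAP9 averaged 5.48 ± 0.09 in mimic-1825 cells and 5.56 ± 0.13 in controls (log2 fold change -0.08, SE 0.07). The difference between the changes of the partners was not tested.

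WAC-AS1 starts upstream of WAC on the opposite strand, and the annotated gene bodies do not overlap. WAC is an adaptor of the ligases that attach ubiquitin to histone H2B. The values of WAC-AS1 were 6.74, 7.01 and 7.08 in mimic-1825 cells, against 6.54, 6.76 and 6.87 in controls. Mimic-1825 replicates 4 and 5 lay within the range of the controls, and the other 4 lay above it. The log2 fold change was 0.22 (SE 0.09, limma adjusted p = 0.389). TRAF3IP2-AS1 is antisense to the gene of ACT1, an adaptor of the interleukin-17 receptor. It had values of 6.00, 6.16 and 6.35 in mimic-1825 cells and of 5.81, 5.95 and 6.11 in controls. The ranges overlapped, although all 6 mimic-1825 arrays lay above the control mean, and the log2 fold change was 0.19 (SE 0.07, limma adjusted p = 0.359).

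The 6 lower genes were LBX1-AS1, WEE2-AS1, PTOV1-AS1, TSPEAR-AS2, C8orf34-AS1 and ATP2A1-AS1. LBX1-AS1, antisense to a homeobox gene of the spinal cord and migrating muscle precursors, had values of 5.14, 5.31 and 5.57 in mimic-1825 cells, against 5.50, 5.66 and 5.70 in controls. Only mimic-1825 replicate 5 reached the range of the controls. Its means were 5.34 ± 0.15 in mimic-1825 cells and 5.64 ± 0.07 in controls, a log2 fold change of -0.29 (SE 0.07, 0.816-fold, limma adjusted p = 0.229). LBX1 itself, at 5.63 ± 0.07 in mimic-1825 cells and 5.67 ± 0.13 in controls, had a log2 fold change of -0.04.

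PTOV1-AS1 lies opposite PTOV1, a gene related to a Mediator subunit and named for its overexpression in prostate tumours. It had values of 5.32, 5.45 and 5.64 in mimic-1825 cells and of 5.52, 5.74 and 5.81 in controls. All 6 mimic-1825 arrays lay below the control mean, and the groups overlapped between 5.52 and 5.64. The log2 fold change was -0.22 (SE 0.07, limma adjusted p = 0.308). WEE2-AS1 is antisense to the oocyte kinase gene WEE2, whose product holds back CDK1. Its values were 5.94, 6.24 and 6.60 in mimic-1825 cells and 6.32, 6.46 and 6.59 in controls. The mimic-1825 arrays spread widely, with replicate 1 as high as the highest control, and the log2 fold change was -0.22 (SE 0.10, limma adjusted p = 0.464). A second, dimmer row of WEE2-AS1 had a log2 fold change of -0.02.

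TSPEAR-AS2 is antisense to TSPEAR, a gene linked to inherited defects of teeth, hair and hearing. It averaged 5.32 ± 0.17 in mimic-1825 cells and 5.52 ± 0.13 in controls (log2 fold change -0.20, SE 0.08, limma adjusted p = 0.417). C8orf34-AS1 averaged 5.28 ± 0.18 in mimic-1825 cells and 5.48 ± 0.14 in controls (log2 fold change -0.20, SE 0.09, limma adjusted p = 0.457). ATP2A1-AS1, antisense to the gene of the calcium pump SERCA1 of fast muscle fibres, averaged 5.95 ± 0.18 in mimic-1825 cells and 6.14 ± 0.10 in controls (log2 fold change -0.19, SE 0.08, limma adjusted p = 0.435). In each of these 3 genes the groups overlapped, and 1 or more mimic-1825 arrays lay inside the range of the controls.

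**Figure D2:**
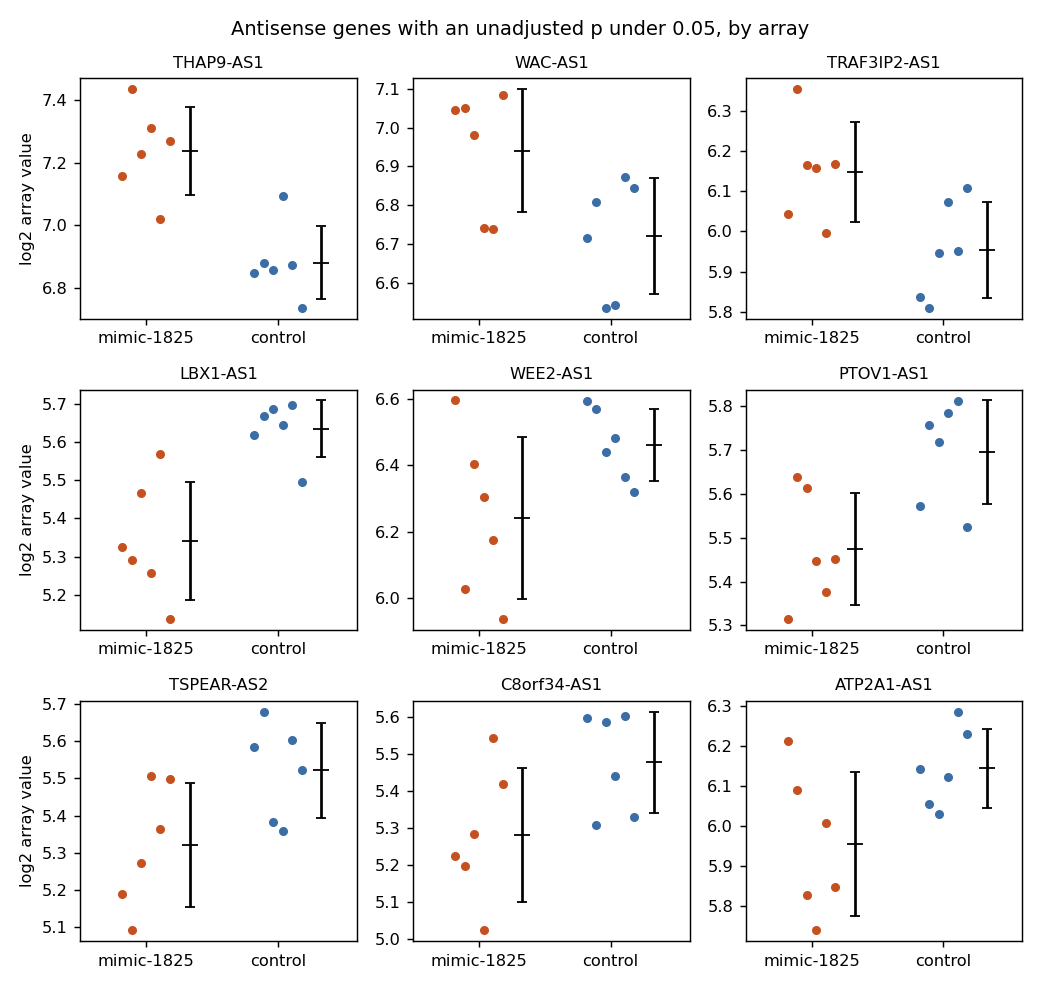
Log2 array values (y axes, which differ between panels and do not start at 0) of the 9 antisense genes with an unadjusted p under 0.05 are drawn for the 6 mimic-1825 arrays (orange) and the 6 control arrays (blue). Black bars give the mean ± SD. THAP9-AS1, WAC-AS1 and TRAF3IP2-AS1 are higher and the other 6 lower in mimic-1825 cells on average, and the groups overlap in every panel.

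Antisense genes with a function known from other work were listed too. Of 18 listed, 9 were among the 145, 2 fell below the minimum of 5 and 7 had no named row. LOXL1-AS1, opposite an enzyme gene of elastic fibre crosslinking, averaged 7.12 ± 0.08 in mimic-1825 cells and 7.24 ± 0.10 in controls (log2 fold change -0.12, SE 0.06, limma adjusted p = 0.478), and its second row had 0.05. FGD5-AS1, reported in other work as a decoy of several microRNAs, averaged 7.501 ± 0.07 in mimic-1825 cells and 7.41 ± 0.07 in controls (log2 fold change 0.09, SE 0.05, limma adjusted p = 0.564). PRKCQ-AS1, opposite the protein kinase C theta gene, had 0.13, with an SD of 0.22 in mimic-1825 cells and 0.08 in controls. Its mimic-1825 replicates 1, 2 and 3 lay above every control array, and replicates 4, 5 and 6 did not. TMPO-AS1, which shares its locus with the lamina-associated protein gene TMPO, had 0.03, MCM3AP-AS1 -0.07, GAS6-AS1 0.07, HOXA-AS3 0.07 and ZEB1-AS1 0.002. THAP9-AS1, at 0.36, is the ninth. The sign of TMPO-AS1 and ZEB1-AS1 turned when single arrays were left out. Of their sense genes with a named row, TMPO had a log2 fold change of 0.10, ZEB1, a repressor of epithelial genes, 0.05, MCM3AP -0.03, GAS6 0.008 and LOXL1 0.002.

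The antisense genes were also grouped by what their sense genes do, and 0 genes passed the test in any group. The groups were drawn up with values already known, and so were the further genes named in them. Of the 12 antisense genes of homeobox, forkhead and other developmental regulators, 4 were higher and 8 lower, from -0.29 (LBX1-AS1) to 0.07 (HOXA-AS3), with a median log2 fold change of -0.04. FOXD2-AS1 had -0.08, MNX1-AS1 -0.01 and HOXB-AS3, which lies in the HOXB cluster, 0.01. Of the 7 at cell division and DNA replication genes, 2 were higher and 5 lower. PCNA-AS1, opposite the replication clamp gene, averaged 7.81 ± 0.05 in mimic-1825 cells and 7.90 ± 0.09 in controls, with 6 of 6 mimic-1825 arrays below the control mean (log2 fold change -0.10, limma adjusted p = 0.512). PRC1-AS1, opposite a midzone spindle gene, had -0.01.

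Antisense genes of chromatin regulators had 6 higher and 3 lower of 9. PCGF3-AS1, opposite a Polycomb subunit gene, had a log2 fold change of 0.18 with 6 of 6 mimic-1825 arrays above the control mean, and JMJD1C-AS1, opposite a histone demethylase family gene, had -0.20. Of the 8 at zinc finger and THAP genes, 3 were higher and 5 lower, and THAP7-AS1 had -0.01 beside the 0.36 of THAP9-AS1. Of the 7 at genes of the transcription machinery, 4 were higher and 3 lower. MED4-AS1, opposite a Mediator subunit gene, had 0.23, and ELOA-AS1, opposite the elongin A gene, 0.05. Of the 6 at RNA-binding and RNA-processing genes, 2 were higher and 4 lower, from -0.24 for PCBP3-AS1 to 0.07 for RBM26-AS1. URB1-AS1, which starts upstream of a nucleolar ribosome biogenesis gene without overlapping it, had -0.13. Of the 7 at membrane trafficking genes, 3 were higher and 4 lower, within -0.05 and 0.09. Of the 6 at genes of mitochondrial proteins, 2 were higher and 4 lower, within -0.11 and 0.07. All 3 at ion channel and pump genes were lower, at -0.19, -0.15 (CACNA1G-AS1) and -0.04 (ATP6V0E2-AS1). In each of these groups at most 1 gene had an unadjusted p under 0.05.

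Beside other classes of genes the antisense genes differed little in their median, and these differences were not tested. The 86 LINC genes at 5 or more, a class of intergenic long non-coding RNAs, had a median log2 fold change of -0.03 with 38 higher and 48 lower. The 241 lncRNA genes at 5 or more that carry no -AS number, LINC genes included, had a median of 0.004 with 122 higher. Among 8594 protein-coding genes at 5 or more the median was 0.01, with 4839 higher and 12.5% at an unadjusted p under 0.05.

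**Figure D3:**
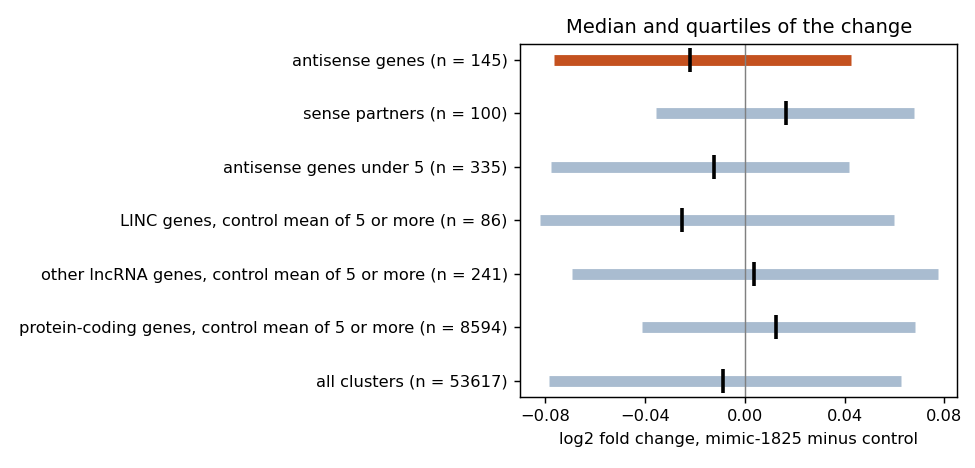
Bars span the quartiles and black ticks mark the median of the log2 fold change (x axis, mimic-1825 minus control) over the genes of each class, with the number of genes in brackets. The antisense genes (orange, 145) have a median of -0.02, and the quartiles of all 7 classes span 0.

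Sense partners were compared next, to see what the opposite strand of each locus did. A row named for the sense gene existed for 100 of the 145 antisense genes. In limma's fit 0 of the 100 passed over all clusters (background 0.0112%), and 15 had an unadjusted p under 0.05, against a background of 10.8%. Of the 15, 13 were higher and 2 lower after the mimic. Protein-coding genes at 5 or more leaned the same way, with 796 higher and 279 lower at an unadjusted p under 0.05, which is 12.5% of them. The median log2 fold change was 0.02, with 61 higher and 39 lower, and after quantile normalization 50 of the 100 were higher. The antisense and sense genes of a pair were both higher in 28 pairs and both lower in 26. In 33 pairs the antisense gene was lower and the sense gene higher, and in 13 it was the reverse. Pearson's r of the changes across the 100 pairs was 0.23, given as a description, since all pairs share the same 12 arrays.

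**Figure D4:**
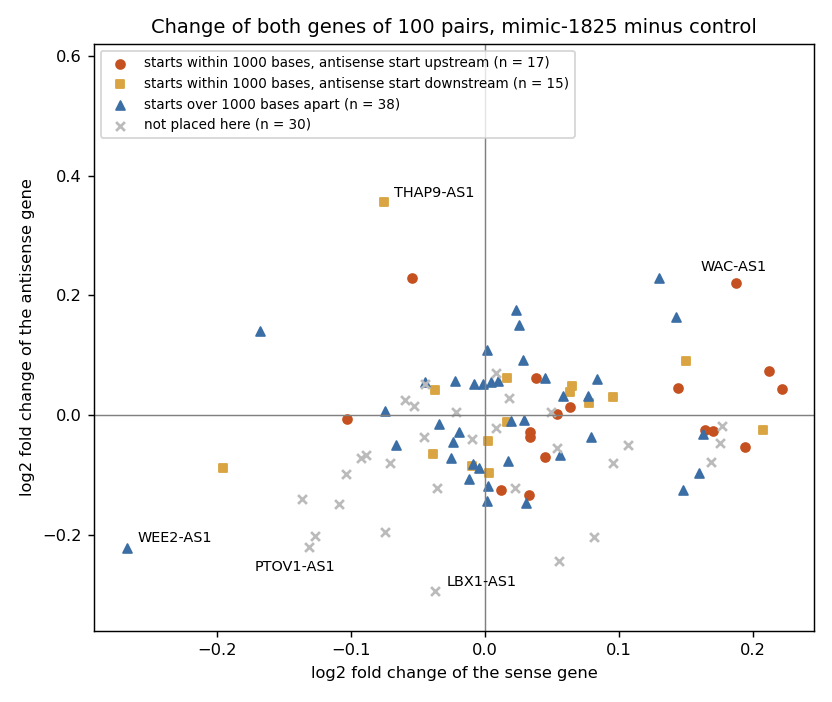
Each point is 1 of 100 pairs, with the log2 fold change of the sense gene on the x axis and that of the antisense gene on the y axis, both mimic-1825 minus control. Symbols give the arrangement of the starts. WAC-AS1 lies high on both axes, WEE2-AS1 and PTOV1-AS1 low on both, and THAP9-AS1 is higher while its sense gene is at -0.08.

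Both genes of a pair had an unadjusted p under 0.05 in 3 pairs, and in each the partners differed in the same direction. For WAC the array values were 7.98, 8.08 and 8.16 in mimic-1825 cells, against 7.78, 7.89 and 8.001 in controls. Only control replicate 5 reached above the lowest mimic-1825 array, replicate 5, and the log2 fold change was 0.19 (SE 0.05, 1.14-fold, limma adjusted p = 0.245), beside the 0.22 of WAC-AS1. In the brightest 25% of clusters WAC was called (limma adjusted p = 0.0480), and WAC-AS1 was not (limma adjusted p = 0.150). The 76 shared bases printed above lie between the starts of this pair, at the upstream end of each window, and contain neither start.

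PTOV1 had values of 6.23, 6.42 and 6.49 in mimic-1825 cells and of 6.42, 6.55 and 6.57 in controls. All 6 mimic-1825 arrays lay below the control mean, and the log2 fold change was -0.13 (SE 0.06, limma adjusted p = 0.428), beside the -0.22 of PTOV1-AS1. WEE2 had values of 3.72, 3.83 and 4.02 in mimic-1825 cells and of 3.94, 4.09 and 4.33 in controls. Its log2 fold change was -0.27 (SE 0.09, limma adjusted p = 0.312), but its row was dimmer than the median row of each array, and no background level was available for it.

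**Figure D5:**
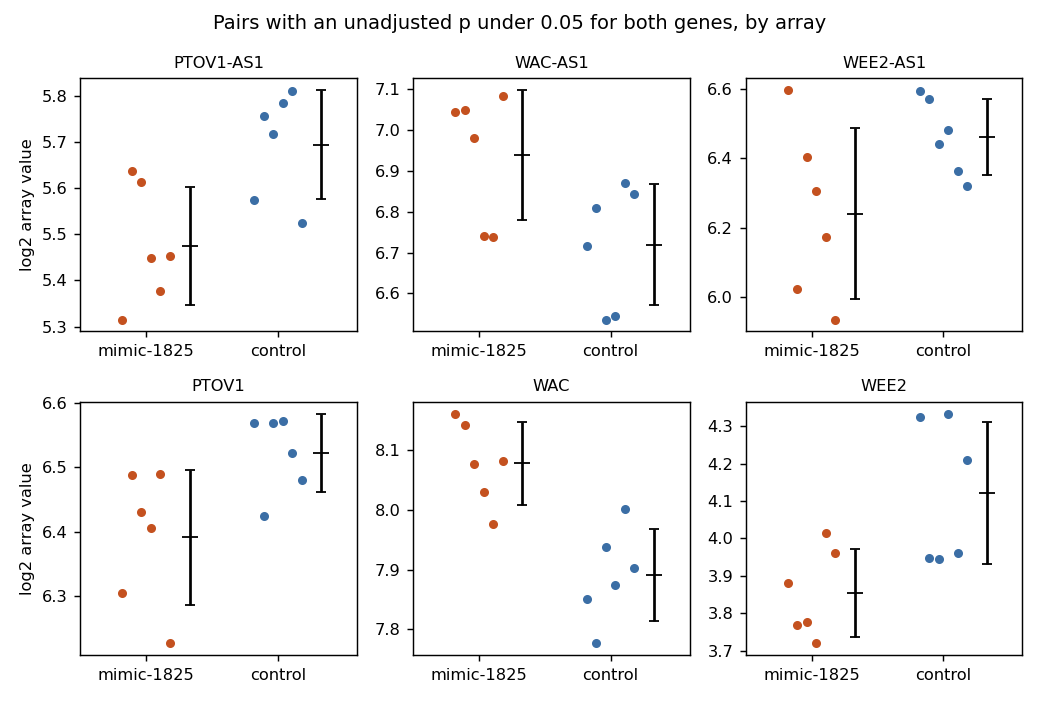
Log2 array values (y axes, which differ between panels and do not start at 0) of 3 antisense genes (upper row) and their sense genes (lower row) are drawn for the 6 mimic-1825 arrays (orange) and the 6 control arrays (blue), with the mean ± SD in black. Partners differ in the same direction in each column, higher after the mimic for WAC and lower for PTOV1 and WEE2.

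The arrangement of the starts was set beside the values as a description. Where the antisense gene started up to 1000 bases upstream, 10 of 28 antisense genes were higher and 18 lower, and 15 of the 17 sense genes with a row were higher. In the 17 pairs with a row for both genes, both were higher in 7 and both lower in 1. The antisense gene was lower and the sense gene higher in 8, and the reverse held in 1. The antisense genes of these 17 pairs had a median log2 fold change of -0.007. Over all 100 sense genes with a row, 61 were higher. Of the 17 sense genes, 5 had an unadjusted p under 0.05, all 5 higher, with the background at 10.8% of all clusters in either direction. The fit of the brightest 25% of clusters held 11 of the 17, all 11 higher. In that fit 59.2% of all clusters were higher, and 21.4% had a limma unadjusted p under 0.05. The 15 of 17 was 14 after quantile normalization and 15 with arrays centred on their medians. These 5 sense genes, named after their values were seen apart from WAC, were WAC, EPHA5 (0.22), an ephrin receptor gene, RBM26 (0.21), an RNA-binding protein gene, CCNT2 (0.16), a cyclin of the elongation factor P-TEFb, and ARHGAP5 (0.14), a RhoGAP gene. Their antisense genes had log2 fold changes of 0.22 for WAC-AS1, 0.04 for EPHA5-AS1, 0.07 for RBM26-AS1, -0.02 for CCNT2-AS1 and 0.05 for ARHGAP5-AS1. EPHA5 had a control mean of 4.86, below the minimum of 5 used for the antisense genes. Where the antisense start lay up to 1000 bases downstream, 12 of 22 antisense genes and 10 of 15 sense genes were higher. With starts farther apart, 26 of 52 antisense genes and 23 of 38 sense genes were higher.

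Among the 100 sense genes, of which those named here were chosen after their values were seen, the mimic-1825 and control arrays were wholly apart for 2, HMGN3 and EPHA5, both higher, beside 0.759% of all clusters. The control mean of EPHA5 was 4.86, below the minimum of 5 used for the antisense genes. Of the 8594 protein-coding genes at 5 or more, a class without EPHA5, 181 were wholly apart and higher and 41 wholly apart and lower. HMGN3, which encodes a nucleosome-binding protein, had values of 8.93, 8.99 and 9.08 in mimic-1825 cells, against 8.80, 8.83 and 8.90 in controls (log2 fold change 0.15, SE 0.04, limma adjusted p = 0.251). HMGN3-AS1 differed the other way, with a log2 fold change of -0.13. In the brightest 25% of clusters HMGN3 was called too (limma adjusted p = 0.0381), the other called sense gene beside WAC, so that 2 of the 57 sense genes tested there were called, against 1.81% of all clusters in that fit. STARD4, a sterol carrier gene, had 0.21 and its antisense gene -0.02, and ZBTB11 had 0.15 and its antisense gene 0.09. PDCD4, whose product restrains translation initiation, had 0.14 and its antisense gene 0.16. A second, dimmer row of PDCD4-AS1 went the other way, with a log2 fold change of -0.14.

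Genes that remove or sort antisense and promoter-proximal RNA were listed as genes known to act on such transcripts. Of 32 listed, 23 had a named row, 17 of them higher and 6 lower, with a median log2 fold change of 0.04. After quantile normalization 14 of the 23 were higher. Of the 23, 22 were bright enough for the fit of the brightest 25% of clusters. There 59.2% of all clusters were higher, and 21.4% had a limma unadjusted p under 0.05 in either direction. In limma's fit over all clusters 0 passed (background 0.0112%). In that fit 4 had an unadjusted p under 0.05, all higher, with a background of 5.36% over all clusters, dim ones included. They were RBM7, a subunit of the nuclear exosome targeting complex (log2 fold change 0.19, SE 0.06), EXOSC9, an exosome core subunit (0.15, SE 0.06), the exonuclease gene XRN1 (0.09, SE 0.04) and DIS3, the catalytic exosome subunit (0.09, SE 0.04), with limma adjusted p between 0.288 and 0.428. The antisense genes stood beside these values at a median of -0.02, and the part of these genes in that median was not tested.

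Rows of the same gene differed in places, and the genes given here were chosen after their values were seen. HLA-F-AS1 had 6 rows, of which 3 held identical values and so are not independent. The row used averaged 6.81 ± 0.07 in mimic-1825 cells and 6.81 ± 0.06 in controls, whereas the dimmest averaged 4.87 ± 0.24 and 4.33 ± 0.36, which is 0.53 in log2 fold change (limma adjusted p = 0.282). DHRS4-AS1 had -0.08 in the row used, where 6 of 6 mimic-1825 arrays lay below the control mean, and 0.04 in a row near 4.2. DHRS4-AS1, NUTM2A-AS1 and HLA-F-AS1 lie at loci with near-identical copies, so their assignment to 1 gene is uncertain.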

How the data were processed

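Expression in HEK293 cells was measured on Human Gene 2.0 ST arrays, 6 per group. The authors deposited 1 log2 value per transcript cluster and array, for which the submitters' processing notes name Expression Console. The version and options of that program were not given in the sources used here, and the log2 scale was read from the values. Of 53617 clusters, 16098 had 1 gene symbol in the platform annotation and 37519 had none; all 16098 identifiers matched RefSeq (GRCh38.p14) and 0 symbols changed. The deposited log2 values were fitted without further normalization with limma 3.58.1 in R 4.3.3 (lmFit, eBayes, two-sided), mimic-1825 minus control, with Benjamini-Hochberg adjustment over all clusters and a threshold of 0.05. The fit was tested on simulated data. The number of arrays limits the precision. Single-probe intensities were not used here, so no background level was set.

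Antisense genes, lists and groups were chosen with earlier results of these data known. Genes were named by a rule: members with an unadjusted p under 0.05 (up to 10 in each direction), members called over all or the brightest 25% of clusters, those at the ends of the level range, 18 listed genes, sense genes of these, pairs with both p under 0.05, and the 4 turnover genes with the smallest p. Replicate numbers recur in both groups. Deviations of same-numbered arrays from their group means correlated between -0.08 and 0.04, so no deviation shared by number was seen. These correlations cannot tell whether same-numbered samples were handled together. Alternatives were a replicate block, quantile normalization, median centring, a trend and robust prior, filters on level or name, other level minimums, the dimmest row of a gene, and leaving out each array.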

Additional observations from a re-analysis of the deposited data

Results flagged for a closer look

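For the sense gene GAS6, which encodes a ligand of the TAM receptor kinases, mimic-1825 replicate 4 stood apart at 6.78, against 7.04 to 7.15 on the other 5 mimic-1825 arrays. It was the 1 sample with a gap of this kind among 58 groups of 6 arrays tested (29 genes in both groups), where chance alone gives about 5% of groups.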

How the results depend on the processing

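The count of 0 antisense genes past the threshold was 1 in the brightest 25% of clusters, where THAP9-AS1 and 34 others were tested, and ranged from 0 to 1 there when single arrays were also left out, an alternative chosen after seeing the data. With a replicate block, antisense genes past the threshold stayed at 0 and 12 of 145 had an unadjusted p under 0.05, against 9 without it. Of all clusters, 9.66% had an unadjusted p under 0.05 with the block and 10.8% without it. The brightest 25% of clusters left 12 antisense genes with a higher mimic mean (of 35 tested) and 2 sense genes past the threshold (of 57 tested), and the cause of the added calls was not tested. A control mean of 6 or more left 4 of 48 antisense genes with an unadjusted p under 0.05 and 20 with a higher mimic mean. No minimum gave 35 and 209 of 480, beside 10.8% of all clusters at an unadjusted p under 0.05. Without single arrays the antisense count at an unadjusted p under 0.05 was 7 to 13, that of higher mimic means 55 to 65 and the median log2 fold change -0.03 to -0.01, and the sense count was 11 to 17. In those fits 9.22% to 11.3% of all clusters had an unadjusted p under 0.05. Signs turned for values close to 0. Without single arrays ZEB1-AS1 ranged from -0.043 to 0.031, TMPO-AS1 from -0.0028 to 0.052, LBX1 from -0.073 to 0.0042, MCM3AP from -0.058 to 0.010, GAS6 from -0.013 to 0.060 and LOXL1 from -0.018 to 0.022 in log2 fold change. After quantile normalization GAS6 had -0.014 and LOXL1 -0.019. The cause was not tested. The dimmer row of LOXL1-AS1 had 0.05, against -0.12 in the row used. Alternatives were run for each of the 9 genes with an unadjusted p under 0.05, the listed genes and their sense genes, and not for the genes named by group. Most of the 145 genes (97) had control means between 5 and 6. That is above the array medians, but the background level was not known.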

Other observations

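The 335 antisense genes below the control mean of 5 had a median log2 fold change of -0.01, with 148 higher and 187 lower after the mimic. In limma's fit 26 of them (7.76%) had an unadjusted p under 0.05, 14 higher and 12 lower, against 10.8% of all clusters, and 0 passed over all clusters. In 1 of the 335 (0.299%) the mimic-1825 and control arrays lay wholly apart, against 1.17% of all clusters.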
